A study of Homo sapiens with 6 samples.

Results

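The mRNA levels of 7 genes that store, import and sense cellular iron are described here, out of 20503 genes with a row in the count table: the ferritin subunit genes FTL and FTH1, the ferritin breakdown receptor gene NCOA4, the transferrin receptor gene TFRC, the iron transporter gene SLC11A2, and the iron regulatory protein genes ACO1 and IREB2. They were taken by name, as genes selected on their counts in these same 6 libraries, so their differences between the groups are given as a description, with no test. One group was T47D, a human breast cancer cell line labelled ER-positive, in 3 libraries. The other, also in 3 libraries, was T47D-TR, a tamoxifen-resistant subline of it whose medium held 4-hydroxytamoxifen (1 µM), which tamoxifen is converted to in the body. The medium was otherwise the same for each, DMEM and 10% fetal bovine serum. Subline and drug changed together, so the effect of one cannot be told apart from that of the other. Only 1 resistant subline was sequenced, and the labels do not say whether replicate libraries stem from independent cultures, so the spread between them, and p-values built on it, may be technical.

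Cells take up transferrin-bound iron through the transferrin receptor, and the transporter encoded by SLC11A2, DMT1, moves iron out of the endosome into the cytosol. Surplus iron is stored inside ferritin, a shell of heavy chains, which oxidise iron, and light chains, which help to lay down the mineral core, and NCOA4 carries ferritin to the lysosome when iron is needed. The iron regulatory proteins IRP1 (ACO1) and IRP2 (IREB2) bind hairpins called iron-responsive elements when iron is scarce. Binding near the start of the ferritin mRNAs blocks their translation, while binding in the 3' end of the TFRC mRNA protects it from decay. A change in ferritin translation would therefore not by itself be seen in the mRNA levels measured here.

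The hairpins found in the ferritin and TFRC transcripts are shown because the iron regulatory proteins act through them. The longest coding transcript of each gene in GENCODE v29 (GRCh38) was searched on the transcribed strand for a loop of 6 bases, CAGTGN with any last base but G, closed by 5 base pairs (G with T allowed), with a C just before the paired bases. Of 19669 coding genes 187 (0.95%) held a match, and 3 held 2 or more. FTL and FTH1 each held 1 match in the 5' UTR, and TFRC held 4 in the 3' UTR, the most in any gene. None was found in the single transcript searched of NCOA4, SLC11A2, ACO1 or IREB2, which says only that these letters were not in it. SLC11A2 is known to have transcript forms with and without such an element. The loop letters alone were in 89.9% of genes, so nearly all of the selection came from the paired stem and the C before it, which were not counted apart. Each site is printed 5' to 3' with 6 further bases on either side and the loop in capitals.
FTL, chr19:48965335-48965363, plus strand: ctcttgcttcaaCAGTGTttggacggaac
FTH1, chr11:61967574-61967602, minus strand: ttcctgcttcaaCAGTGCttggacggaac
TFRC site 1, chr3:196050979-196051007, minus strand: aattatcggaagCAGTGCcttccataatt
TFRC site 2, chr3:196050575-196050603, minus strand: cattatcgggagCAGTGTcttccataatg
TFRC site 3, chr3:196050510-196050538, minus strand: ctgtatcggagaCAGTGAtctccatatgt
TFRC site 4, chr3:196050463-196050491, minus strand: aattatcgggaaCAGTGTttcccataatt
The ferritin sites share the same stem bases on both sides of the loop, whereas the TFRC sites differ from each other in the stem.

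The libraries held 17199315 to 19867230 counts, so that 3 counts were worth 0.153 to 0.178 on the counts-per-million scale (CPM, with library totals scaled by the TMM method). Replicate 3 of T47D-TR was unlike its companions: the chi-square between libraries, averaged over genes, was 8.36 and 9.58 for the pairs that include it and 2.79 for the pair that does not. Values without it are given below. The defining marker ESR1, the oestrogen receptor alpha gene, had only 0 to 4 counts per library over both groups, which goes against the label ER-positive, and the epithelial cadherin gene CDH1 had a mean of 2.12 CPM in T47D. The 8 listed luminal epithelial markers summed to 2045 to 2126 CPM in T47D libraries and 2405 to 2816 in T47D-TR libraries, mostly from the keratin genes KRT8 and KRT18. Other markers of the list did not follow the sum, with means of 38.6 and 14.7 CPM for EPCAM and 1.23 and 0.625 CPM for GATA3, and the identity of the cells was not tested beyond these genes. Of the markers of iron-rich cell types, 5 macrophage genes summed to 26.8 to 30.5 CPM in T47D libraries and 62.8 to 79.7 in T47D-TR libraries, mostly from the lysosomal gene CD68 (means 23.7 and 64.6 CPM) and then CSF1R (4.77 and 5.24 CPM), with PTPRC at 0 to 2 counts and CD163 at 0 or 1 count per library. Of 5 erythroid markers 1 was matched to a row here, the receptor gene EPOR, at 7.05 to 9.48 CPM in T47D libraries and 13.003 to 15.7 in T47D-TR libraries. None of 4 hepatocyte markers was matched. The 2 matched endothelial markers of 4 summed to 0.665 to 0.804 CPM in T47D and 23.5 to 31.1 in T47D-TR, almost all from PECAM1, and the 5 fibroblast markers to 36.4 to 39.8 and 20.3 to 24.6 CPM, where LUM had means of 13.9 and 0.253 CPM and COL1A1 of 18.2 and 17.5 CPM. COL1A2 was at 0 in all libraries but replicate 3 of T47D-TR, which had 22 counts of it and 19 of DCN. In a culture profiled as a whole, fewer cells of a type and less RNA per cell cannot be told apart, and the part of these markers in the values below was not tested.

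Ferritin light chain mRNA was at about 0.488 times its T47D level in the resistant subline, whereas ferritin heavy chain mRNA overlapped between the cultures. FTL (chromosome 19, 48965309 to 48966879, GRCh38) had 80789, 85100 and 81591 counts in T47D and 38341, 38511 and 40972 in T47D-TR. Scaled to library size these were 4350, 4352 and 4372 CPM against 1988, 1964 and 2426 CPM. Every T47D-TR library lay far below every T47D library, and replicate 3 was the highest of the resistant libraries. The difference was -1.04 ± 0.10 on the log2 scale (T47D-TR over T47D, ± SE, n = 3 libraries a group), and -1.14 without T47D-TR replicate 3. Of 15961 tested genes 580 (3.63%) had a lower log2 fold change. In the authors' deposited table the log2 fold change of FTL is also -1.04.

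FTH1 (chromosome 11, 61964285 to 61967634) had 6791, 7254 and 7344 CPM in T47D and 5448, 5819 and 7585 CPM in T47D-TR. Replicates 1 and 2 of the subline lay below all T47D libraries, but replicate 3 was the highest of all 6. The difference was -0.18 ± 0.15 with all libraries, -0.34 without T47D-TR replicate 3 and -0.09 without T47D-TR replicate 1. It was -0.66 in a limma voom fit with quantile normalization, which differs from the edgeR fit in both the model and the scaling. That fit moved the median of all tested genes by -0.11. By CPM, FTH1 ranked 3 among all genes in T47D and 8 in T47D-TR, and FTL ranked 10 and 24. FTH1 overlaps BEST1 and LOC399900, which had at most 2.15 and 2.57 CPM, and the strand setting of the counting is not known here.

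Both ferritin genes have many processed copies in the genome, so some reads could have been shared with them. The table listed 9 FTH1 pseudogenes with 2845 to 3368 counts per library in sum, 2.37% to 2.71% of the FTH1 counts, the highest being FTH1P20 with at most 119 CPM. It listed 2 FTL pseudogenes with 11 to 31 counts in sum. With these counts added, the log2 fold change of FTH1 was -0.18 and that of FTL -1.04. So few counts could hardly have moved either value, so the sharing of reads with the copies was not tested by this.

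Since the subunits differed in how far apart the cultures lay, the balance of heavy to light chain mRNA differed too. The ratio of FTH1 to FTL counts was 1.56, 1.67 and 1.68 in the T47D libraries and 2.74, 2.96 and 3.13 in the T47D-TR libraries. The groups were clearly apart, and replicate 3 of the subline, which was highest for each subunit alone, had the highest ratio too. The difference was 0.85 ± 0.06 on the log2 scale, a 1.80-fold higher ratio in T47D-TR, and ranged from 0.80 to 0.90 when single libraries were left out. This ratio does not depend on how libraries are scaled. FTL and FTH1 together took 1.13%, 1.18% and 1.18% of all counts in T47D and 0.736%, 0.768% and 0.983% in T47D-TR.

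**Figure D1:**
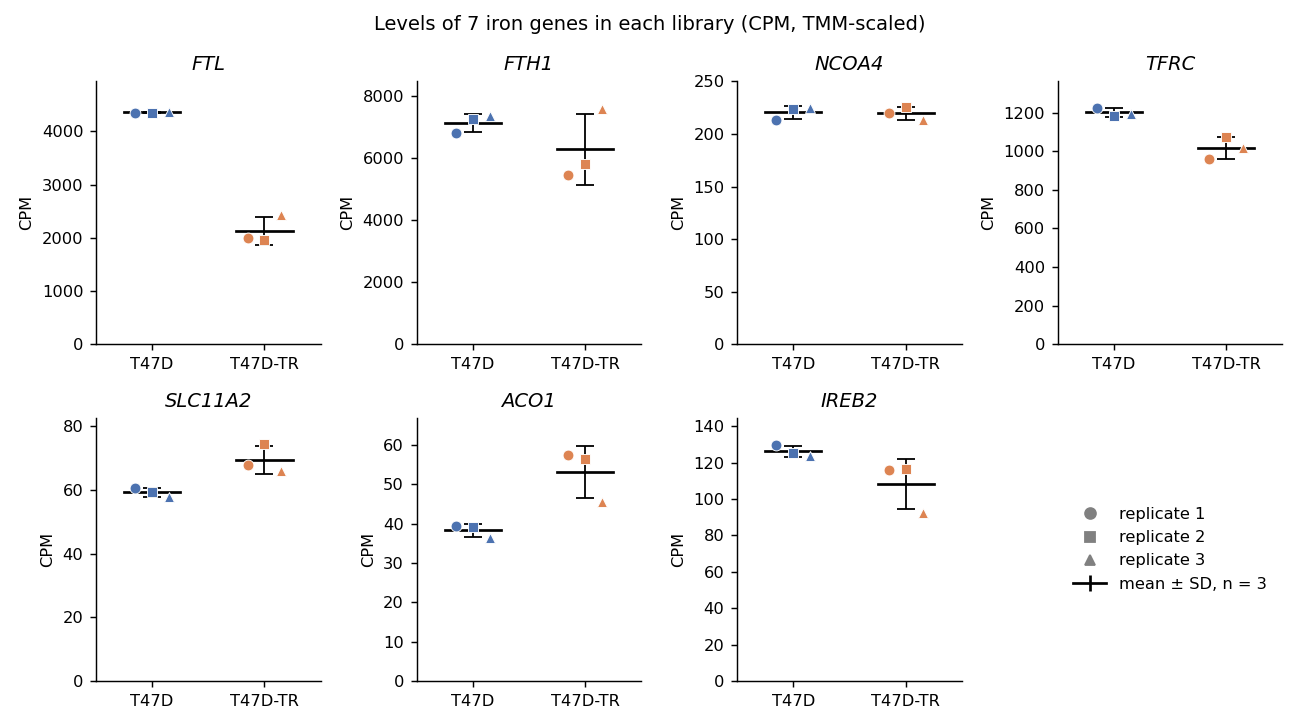
Levels of the 7 genes in CPM (vertical axes, each from 0) in the 3 libraries of T47D and of T47D-TR. Symbols mark replicates 1 to 3, lines and bars the mean ± SD. FTL shows the widest gap, and in T47D-TR replicate 3 lies highest for FTL and FTH1 and lowest for NCOA4, SLC11A2, ACO1 and IREB2.

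NCOA4, whose product delivers ferritin to lysosomes (chromosome 10, 46005088 to 46030623), was at 213, 224 and 224 CPM in T47D and 220, 225 and 213 CPM in T47D-TR. The groups overlapped fully, with a difference of -0.01 ± 0.03. Over the alternative scalings, filters and left-out libraries it stayed between -0.04 and 0.05, with either sign. Of the ferritin subunits, FTH1 likewise overlapped between the groups and FTL did not.

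The uptake genes lay on opposite sides. TFRC (chromosome 3, 196049284 to 196082090) had 1226, 1183 and 1193 CPM in T47D and 962, 1073 and 1015 CPM in T47D-TR. All resistant libraries were below all parental ones, by a modest margin. The difference was -0.24 ± 0.05, equal to 0.847 times the T47D level, and -0.24 without T47D-TR replicate 3. Relative to ferritin, TFRC counts were 0.110, 0.102 and 0.102 of the FTL and FTH1 counts in T47D and 0.129, 0.138 and 0.101 in T47D-TR. Here replicate 3 of the subline lay just below the T47D libraries while the other 2 lay above them. The log2 difference of this ratio was 0.22 ± 0.14, and 0.35 without replicate 3. SLC11A2, the gene of DMT1 (chromosome 12, 50952263 to 51028886), had 60.7, 59.5 and 57.8 CPM in T47D and 67.8, 74.4 and 66.1 CPM in T47D-TR. All resistant libraries were higher, with a difference of 0.23 ± 0.06. SLC11A2 overlaps HIGD1C, which had at most 9 counts in a library.

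The iron sensors also went different ways. ACO1, the gene of IRP1, which is the cytosolic aconitase when it carries an iron-sulphur cluster (chromosome 9, 32384643 to 32454769), had 39.4, 39.1 and 36.4 CPM in T47D and 57.4, 56.5 and 45.6 CPM in T47D-TR. The groups did not overlap, and replicate 3 was the lowest of the resistant libraries. The difference was 0.48 ± 0.11, or 1.39-fold, and 0.57 without replicate 3. IREB2, the gene of IRP2, which is controlled by degradation of the protein (chromosome 15, 78437431 to 78501453), had 130, 125 and 124 CPM in T47D and 116, 116 and 92.3 CPM in T47D-TR. All resistant libraries lay below the parental ones, with replicate 3 well below the other 2. The difference was -0.22 ± 0.11, and it shrank to -0.12 without that replicate.

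The balance of the 2 sensor mRNAs differed clearly and varied little within the subline. IREB2 counts were 3.29, 3.21 and 3.39 times the ACO1 counts in T47D and 2.02, 2.06 and 2.02 times in T47D-TR. Replicate 3 was low for both genes and did not stand apart in their ratio. The log2 difference was -0.70 ± 0.02, and -0.72 to -0.68 when single libraries were left out. As a ratio of counts it compares the groups, and does not correct for the lengths of the transcripts.

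**Figure D2:**
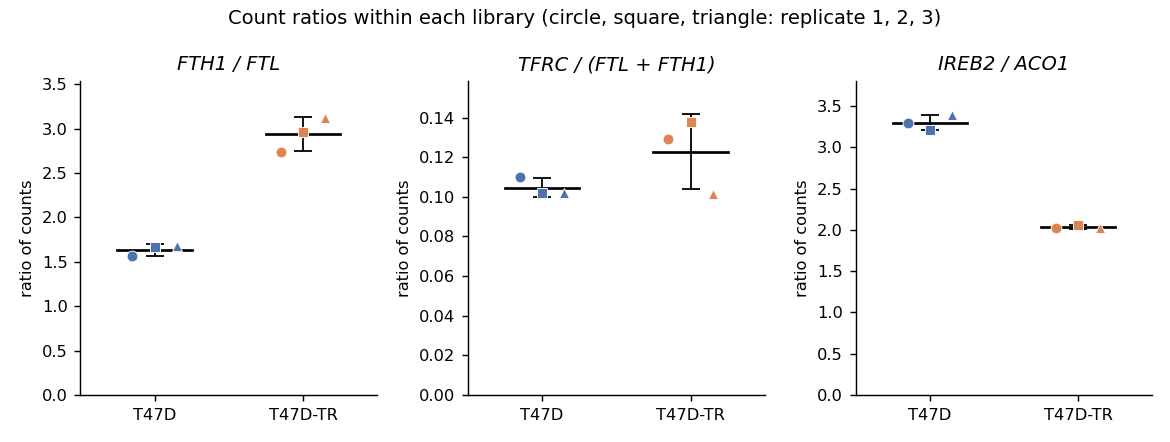
Ratios of counts within each library for FTH1 over FTL, TFRC over FTL plus FTH1, and IREB2 over ACO1 (vertical axes from 0), with mean ± SD of 3 libraries a group. The ratios FTH1 over FTL and IREB2 over ACO1 separate the cultures, while T47D-TR replicate 3 at 0.101 lies next to the T47D values of TFRC over ferritin.

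Levels can be compared between genes only per length. In CPM per kilobase of the longest coding GENCODE v29 transcript, the T47D means ran FTH1 (5801 ± 241), FTL (4964 ± 13.97), TFRC (235 ± 4.42), NCOA4 (62.2 ± 1.78), IREB2 (19.9 ± 0.491), SLC11A2 (13.6 ± 0.338) and ACO1 (5.13 ± 0.216), and no neighbours in this order overlapped between libraries. The order was kept in T47D-TR, where FTH1 stood at 5113 ± 929 and FTL at 2421 ± 297 CPM per kilobase. There IREB2, at 14.5 to 18.3, overlapped SLC11A2, at 15.2 to 17.1. The transcripts actually used by the cells are not known from these data, and a shorter ACO1 transcript would raise its value.

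Spread within a group was larger in the subline for 6 of the 7 genes. The coefficient of variation of CPM was 0.281% for FTL in T47D and 12.2% in T47D-TR, and 4.16% and 18.2% for FTH1. For NCOA4 it was 2.86% and 2.70%. Replicate 3 of T47D-TR was the highest or the lowest of its group for every member but TFRC.

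By the rule used for the whole table, edgeR's quasi-likelihood test with a Benjamini-Hochberg adjusted p under 0.05, all 7 members passed the filter on low counts, 2 were called higher (SLC11A2 and ACO1), 3 lower (FTL, TFRC and IREB2) and 2 were not called (FTH1 and NCOA4). Over all tested genes 63.0% were called, 32.5% higher and 30.5% lower. Because the members were chosen with this comparison known, nothing is read from their count. The libraries of the 2 groups did not overlap for 5 of the 7, against 68.3% of all tested genes, with 2 higher (34.6% of all) and 3 lower (33.8% of all). The median log2 fold change was -0.18 over the members and 0.00 over all tested genes. FTL was the only member past 2-fold, where 14.0% of tested genes were called past 2-fold in either direction and 3.87% past 2-fold lower.

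**Figure D3:**
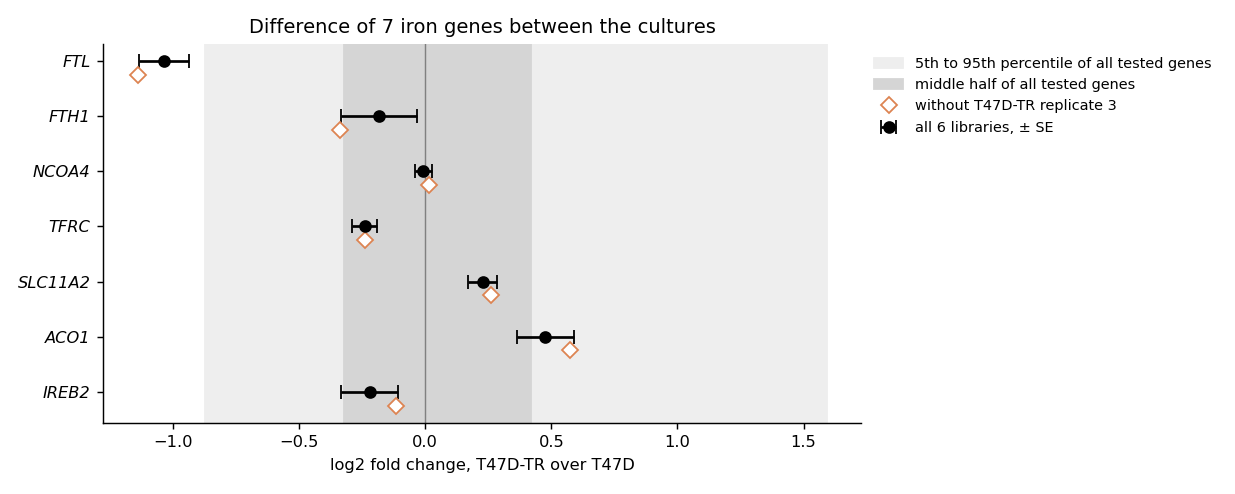
Log2 fold change of each member, T47D-TR over T47D (horizontal axis), with its SE (filled points) and without T47D-TR replicate 3 (open diamonds). Shaded bands give the 25th to 75th percentile (-0.32 to 0.42) and the 5th to 95th percentile (-0.87 to 1.59) of all 15961 tested genes; FTL lies below both bands.

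The genes most like 3 of the members across the 6 libraries were sought among 9829 other genes of at least 10 CPM, by the root mean square difference of their centred log2 CPM. Nearest to FTL were MEPCE, a small-RNA capping enzyme gene (difference 0.03), PODXL2, a sialomucin gene (0.03), and MRTO4, a ribosome assembly gene (0.05), which went from 199 ± 4.83 to 95.7 ± 7.09 CPM. Nearest to FTH1 were WIBG, EEFSEC, which encodes the selenocysteine elongation factor, and the complex I subunit gene NDUFC1 (0.04 each). They had log2 fold changes of -0.18, -0.22 and -0.15, and, like FTH1 by the way they were chosen, a higher value in T47D-TR replicate 3 than in the other 2 libraries of that group. Without it the values were -0.32, -0.38 and -0.34. Nearest to TFRC were WDR35, a ciliary transport gene (0.01), SAP30BP (0.02) and the polyadenylation factor gene CPSF6 (0.02). These are likenesses over 6 libraries of 2 groups and are given as a description.

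The rest of the iron pathway was followed in 109 genes of 7 lists drawn up by function. Of these, 99 were matched to a row and 95 were tested, of which edgeR called 33 higher and 40 lower in T47D-TR (76.8%, against 63.0% of all tested genes). Their median log2 fold change was -0.05, close to the 0.00 of all tested genes, so the pathway as listed moved both ways. Without T47D-TR replicate 3, 34 of 96 tested genes were called higher and 44 lower. The lists were chosen with earlier results of these data known, so nothing is read from the share called. The adjusted p-values of listed genes below carry the same limit. In the counts of each list below, rose and fell mean called higher or lower by edgeR at an adjusted p under 0.05. Any genes left over in a list were not called. Over all tested genes 32.5% were called higher and 30.5% lower.

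**Figure D4:**
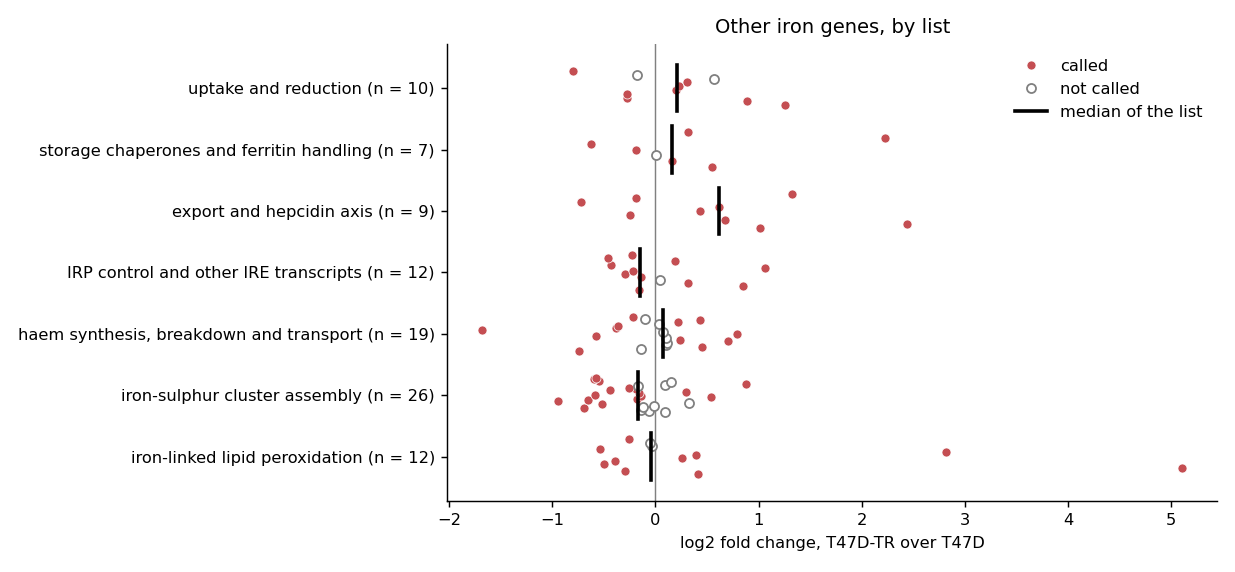
Log2 fold change, T47D-TR over T47D (horizontal axis), of the 95 tested genes of the 7 lists. Filled points passed edgeR's adjusted p under 0.05, open points did not, and bars mark the median of each list, from -0.16 for iron-sulphur cluster assembly to 0.62 for export and the hepcidin axis.

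Among uptake and iron-reducing genes 5 of 10 rose and 3 fell, with a median of 0.21. CYBRD1, which encodes a ferric reductase of the plasma membrane, rose from 18.4 ± 1.39 to 43.9 ± 6.15 CPM (a log2 difference of 1.26 ± 0.14, with an adjusted p of 3.7e-07 by edgeR). HFE, the haemochromatosis gene whose product binds the transferrin receptor, rose from 12.8 ± 0.655 to 23.7 ± 4.08 CPM (0.88, adjusted p = 2.3e-05). TFR2, the gene of the other transferrin receptor, fell from 23.8 ± 0.477 to 13.7 ± 1.09 CPM (-0.80, adjusted p = 3.0e-06). SLC39A14, a zinc and iron importer gene, rose by a small step from 164 ± 0.989 to 192 ± 1.58 CPM. STEAP3, which encodes the ferric reductase of the transferrin endosome, stood at 49.3 ± 2.86 and 43.4 ± 4.54 CPM and was not called (adjusted p = 0.054). It was called lower in 5 of 13 alternatives, namely library size alone (0.026), voom with quantile normalization (0.025), the replicate block (0.021), and leaving out T47D-TR replicate 1 (0.0074) or 3 (0.038). MCOLN1, an endolysosomal channel gene, fell by 0.27 on the log2 scale (adjusted p = 0.02). MCOLN1 missed the threshold with DESeq2 (0.062) and when replicate 1 (0.071) or 2 (0.061) of T47D or replicate 1 of T47D-TR (0.073) was left out. In those runs its value was -0.28 to -0.24. It was -0.44 with voom and quantile normalization and -0.32 without T47D replicate 3.

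For genes that load, move and break down ferritin iron, 4 of 7 rose and 2 fell, with a median of 0.16. The iron chaperone genes did not move together. PCBP1, whose product delivers iron to ferritin, was at 187, 185 and 185 CPM in T47D and 170, 165 and 223 CPM in T47D-TR. Its resistant libraries lay on both sides of the parental ones, as for FTH1, and without T47D-TR replicate 3 its log2 fold change went from 0.00 (adjusted p = 0.973) to -0.14 (0.0017). PCBP2 fell from 567 ± 10.2 to 497 ± 10.5 CPM and PCBP4 from 46.98 ± 1.24 to 30.6 ± 2.26 CPM (-0.62, adjusted p = 4.7e-06). SCARA5, which encodes a ferritin receptor, rose from 0.966 ± 0.141 to 4.57 ± 1.58 CPM, from only 16 to 22 counts per T47D library. ATG9A, an autophagy gene, rose from 51.6 ± 1.27 to 75.2 ± 2.39 CPM. HERC2, whose product marks NCOA4 for degradation, rose slightly from 93.6 ± 1.92 to 105 ± 2.98 CPM (0.16, adjusted p = 0.0085), beside the NCOA4 levels given above.

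Export genes and the BMP and hepcidin signalling genes numbered 9 among the tested, of which 6 rose and 3 fell (median 0.62). The exporter gene SLC40A1 and the hepcidin gene HAMP were listed but not matched to a row, so they were not analysed here. BMP2, a ligand gene of that pathway, rose from 0.601 ± 0.281 to 3.27 ± 0.317 CPM (a log2 difference of 2.43 ± 0.33, adjusted p = 8.4e-06 by edgeR). It had only 7 to 17 counts per T47D library. BMP6, a ligand gene with more counts, rose from 33.9 ± 2.93 to 54.1 ± 0.859 CPM (0.67, edgeR adjusted p = 2.6e-06). TMPRSS6, a protease gene that restrains hepcidin, rose from 0.354 ± 0.206 to 0.888 ± 0.154 CPM (edgeR adjusted p = 0.013), from only 4 to 11 counts per T47D library. That call ended without T47D replicate 1 (0.055) or 2 (0.065). ID1, a BMP target gene, fell from 163 ± 1.56 to 98.7 ± 9.46 CPM, and the receptor gene BMPR1A from 43.6 ± 1.34 to 36.7 ± 2.64 CPM.

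Genes that control the iron regulatory proteins, and other transcripts known to carry iron-responsive elements, numbered 12, of which 4 rose and 7 fell (median -0.15). FBXL5 encodes the iron-binding subunit of the ligase that degrades IRP2, and it stood at 19.5 ± 0.795 and 22.2 ± 0.99 CPM (0.19 ± 0.05, edgeR adjusted p = 0.037). That call ended in 8 of 13 alternatives, namely DESeq2 (0.115), voom with quantile normalization (0.29), library size alone (0.084), the replicate block (0.051), and leaving out T47D replicate 1 (0.092), 2 (0.148) or 3 (0.053) or T47D-TR replicate 1 (0.133). RBX1, another subunit of that ligase, fell from 32.9 ± 2.24 to 24.0 ± 2.46 CPM. CIAO2A (row FAM96A), which serves cluster insertion into IRP1, fell from 67.5 ± 4.89 to 50.2 ± 3.8 CPM (-0.43, adjusted p = 0.00017), while ACO1 itself was higher. Of the element-bearing transcripts, EPAS1, the gene of HIF-2 alpha, rose from 115 ± 3.54 to 240 ± 17.7 CPM (1.06 ± 0.07, adjusted p = 9.9e-09), and CDC14A from 5.68 ± 0.404 to 10.2 ± 1.31 CPM.

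Of 19 haem genes 6 rose and 6 fell (median 0.07). HMOX1, the inducible haem oxygenase gene whose enzyme frees iron from haem, was at 65.6, 66.3 and 67.7 CPM in T47D and 18.2, 13.8 and 31.1 CPM in T47D-TR. All resistant libraries were far lower, with replicate 3 the highest of them as it was for FTL. HMOX1 fell by 1.67 on the log2 scale (SE 0.34, edgeR adjusted p = 7.7e-06), the lowest value in all lists. ABCB10, a mitochondrial transporter gene, fell from 27.3 ± 0.944 to 16.3 ± 1.74 CPM. BLVRB, a biliverdin reductase gene, rose from 19.6 ± 1.3 to 31.9 ± 3.37 CPM, and FLVCR2 from 3.48 ± 0.129 to 6.04 ± 0.693 CPM.

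Of 26 iron-sulphur cluster assembly genes 14 fell, 3 rose and 9 were not called (median -0.16). The share called was 65.4%, against 63.0% of all tested genes. ISCU, the gene of the assembly scaffold, fell from 68.3 ± 1.99 to 50.4 ± 2.87 CPM (-0.44 ± 0.05, edgeR adjusted p = 2.4e-05), and CIAPIN1, a factor of cytosolic assembly, from 59.2 ± 4.36 to 36.8 ± 0.714 CPM. NFS1, which encodes the enzyme that supplies the sulphur, rose from 41.3 ± 1.88 to 75.7 ± 3.03 CPM (0.87 ± 0.05, adjusted p = 5.9e-08), and HSCB, a co-chaperone gene, from 7.38 ± 0.386 to 10.7 ± 0.681 CPM. The scaffold and the sulphur donor work in one complex, and their mRNAs went in different directions.

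Of 12 genes linked to iron-driven lipid peroxidation 5 rose and 5 fell (median -0.04). ALOX5, a lipoxygenase gene, rose from 0.249 ± 0.166 to 8.75 ± 1.45 CPM (a log2 difference of 5.11 ± 0.41, adjusted p = 1.8e-08 by edgeR), from only 2 to 8 counts per T47D library. The log2 difference was 5.02 without T47D replicate 1, 4.72 without T47D replicate 2 and 5.73 without T47D replicate 3. PROM2, whose product promotes the export of ferritin, rose from 0.616 ± 0.0427 to 4.4 ± 0.0906 CPM, from only 11 to 13 counts per T47D library. SLC3A2, a subunit gene of the cystine importer, fell from 335 ± 8.6 to 230.4 ± 20.5 CPM, and DHODH from 13.2 ± 0.972 to 9.38 ± 1.28 CPM. SLC7A11, the gene of the importer's other subunit, stood at 768 ± 23.9 and 752 ± 90.9 CPM. Its groups overlapped and it was not called (-0.03, edgeR adjusted p = 0.713).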

How the data were processed

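Poly(A)-selected RNA of 3 T47D and 3 T47D-TR libraries was made with a directional kit from 1 µg of total RNA, per the labels' protocols. The tools named for the reads are HISAT2 (2.1.0) and DESeq, and the build is GRCh38, per the submitters' processing notes. No source used here gives the counting tool, its strand setting or its annotation. As deposited, the table holds whole-number counts per gene, although it is named for FPKM. Beside them the authors deposited a mean normalized signal per group, a fold as a linear ratio, its log2 and a p-value with a false discovery rate, of which only log2 values were used here.

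Counts were filtered with filterByExpr (minimum count 10, minimum total 15), scaled with TMM and tested with edgeR 4.0.16 (glmQLFit, glmQLFTest), 2-sided, with Benjamini-Hochberg adjustment over 15961 genes. Log2 fold changes are edgeR's, and their SE comes from the spread of log2 CPM (prior count 2). The procedure was tested on simulated data in which few genes differed, whereas 63.0% of tested genes were called here. Its error rates in data like these were not tested. The members and gene lists were chosen with earlier results of these data known. Named genes are the members, up to 2 called genes at each end of each list, 13 fixed genes, and the 3 genes most like FTL, FTH1 and TFRC; some of them are not reported here. Genes were matched by symbol or, for 5 listed genes, Entrez ID. Positions come from RefSeq (GRCh38.p14). Alternatives used DESeq2 1.42.0, limma 3.58.1 (voom), other scalings and filters, single libraries left out, and a replicate block.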

Additional observations from a re-analysis of the deposited data

How the results depend on the processing

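Of the 7 members' log2 fold changes, the 3 ratios and the 3 counts of called genes, all but 2 values stayed within the spread between libraries (for counts, within 1.5 times) under each alternative run. With voom and quantile normalization FTH1 moved from -0.18 to -0.66 and NCOA4 from -0.01 to 0.046, and the cause was not tested. The count of tested genes called was 8010 to 10514 over the other alternatives. With single libraries left out it was 9047 to 10665, with 29 to 34 listed iron genes higher and 35 to 44 lower. So treated, FTL ranged from -1.14 to -0.98, FTH1 from -0.34 to -0.09, NCOA4 from -0.03 to 0.01, TFRC from -0.28 to -0.20, SLC11A2 from 0.18 to 0.26, ACO1 from 0.42 to 0.57 and IREB2 from -0.27 to -0.12. PCBP1, at 0.00, changed sign with library size alone (-0.034) and with the replicate block (-0.0078), and ranged from -0.14 (T47D-TR replicate 3 left out) to 0.084 with single libraries left out, among them -0.0042 and -0.0016 when T47D replicate 2 or 3 was. The pseudogene counts were added as an alternative chosen after seeing the data. The labels give replicate numbers and no pairing of libraries. Over all tested genes the correlation of deviations of same-numbered libraries was -0.02 to -0.01, and a shared batch was not tested. With the replicate block 9954 genes were called, against 10053 without it, FTL was at -1.04 and FTH1 at -0.20. Depth did not limit the members, whose lowest count was 680.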
